A study of Mus musculus with 8 samples.

Results

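The 9 genes described here, Ttn, Neb, Trdn, Cacna1e, Lrp1b, Csmd3, Abca13, Dnah11 and Sycp2, were selected from 24639 counted genes by symbol, as long-exon genes of muscle, brain, cilia and germ cells that rose in AGO2-IP of miR-379KO cells while almost lacking total RNA counts. Because they were chosen on the AGO2-IP difference between the genotypes, that difference is given for them as a description, without a test. Primary mouse mesangial cells (MMC), the contractile cells of the kidney glomerulus, were grown without treatment from wild-type (WT) C57BL/6J mice and from homozygous C57BL/6J mice carrying a short CRISPR-Cas9 nickase deletion of miR-379 (miR-379KO). Per the study's methods, the cells were cultured from pooled glomeruli. The deletion is constitutive, so all cells of the mice carry it. Total RNA and RNA recovered with anti-AGO2 beads were each sequenced from 2 replicates of each genotype, A and B, which makes 8 libraries in 4 groups. The study describes male mice, 10 weeks old when its diabetes experiment began, as a source of mesangial cells, and which of its mice gave these libraries is not given in the sources used here.

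AGO2 is the Argonaute protein that holds a microRNA and is guided by it to partly complementary sites in messenger RNAs, most often through pairing of the microRNA's seed. UV cross-linking followed by AGO2 immunoprecipitation (AGO2-IP) recovers these RNAs together with whatever else stays on the beads. A gene that a cell does not transcribe has no messenger RNA for AGO2 to hold, so reads on its exons give a level against which reads on transcribed genes can be read, and a gene with very long exons collects enough of them to be counted.

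The lost microRNA and its possible sites in the 9 genes are shown first, because a microRNA target is recognised by these letters. The mature miR-379-5p of RefSeq (GRCm38.p6, chr12:109709065-109709085, plus strand) reads as follows, with its seed, bases 2 to 8, in capitals.
miR-379-5p: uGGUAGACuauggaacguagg
The match to this seed, GTCTACC, was searched on the transcribed strand of the annotated exons. It occurred 11 times, in 4 of the 9 genes. Ttn held 5 matches, Neb 3, Dnah11 2 and Lrp1b 1, all in coding sequence, and 0 of the 9 genes held one in the 3′-UTR, where microRNA sites are best known. For each of Dnah11, Neb and Ttn, the match of lowest coordinate whose surrounding 30 bases lie wholly in 1 exon is printed 5′ to 3′ on the transcribed minus strand, with the match in capitals. They lie in GRCm38.p6 at chr12:117928325-117928354, chr2:52216963-52216992 and chr2:76707070-76707099, in this order.
Dnah11: aggagaatcaaccccGTCTACCagttctct
Neb: atcctctgtgacagtGTCTACCggaccccc
Ttn: ggagatcaaaacactGTCTACCcagatgaa
Per 100 kb of exon the 9 genes held 5.29 matches, other long silent genes (defined below) 4.98 and all 20581 protein-coding genes 4.35. A match in any exon was present in 44.4% of the 9 genes, 26.2% of the other long silent genes and 12.3% of all protein-coding genes. In the 3′-UTR a match was found in 8.14% of the long silent genes and 4.06% of all. The rest of the genes, Trdn, Cacna1e, Csmd3, Abca13 and Sycp2, held 0 matches to this seed in their exons. Matches to the seed of miR-379-3p, the other mature strand of miR-379, were not searched.

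The AGO2-IP libraries differed in make-up between the genotypes. Gene counts ranged from 17168230 to 22660743 in total RNA and from 5587611 to 17095021 in AGO2-IP, where they fell to between 1115782 and 1875037 once the ribosomal precursor Rn45s and Lars2 were left out. Of the uniquely placed reads, those outside genes made up 46.6% and 49.7% in AGO2-IP of WT, compared with 73.4% and 76.4% in AGO2-IP of miR-379KO. Mir379 itself had between 0 and 4 counts in every library, so its loss was not detectable at this depth and the genotype labels could not be checked with it. The 13 mesangial markers summed to between 38649 and 43538 CPM in total RNA (CPM, the count scaled to the size of the library), led by Fn1. The part of the different library make-up in the results below was not tested.

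As a check of the label silent, the 9 genes were read in total RNA first. Lrp1b, Cacna1e and Trdn had 0 counts in each of the 4 libraries, which allows up to 3 counts in each. Ttn had 2 and 4 counts in WT, compared with 2 and 1 in miR-379KO, and Csmd3, Abca13, Dnah11 and Sycp2 had at most 3 in any library. Neb went against the label, with 56 and 22 counts in WT, compared with 24 and 12 in miR-379KO total RNA, and was the 1 gene of the 9 that passed the filter on low counts there. Its log2 fold change in total RNA was −1.36, and it did not pass edgeR's Benjamini-Hochberg threshold, as was so for all 12321 genes tested. The background of calls was thus 0.0%, with 0 genes called by edgeR and by DESeq2, while 91 had an unadjusted p-value under 0.05 in edgeR. In bulk cultures, fewer cells expressing a gene and less RNA per cell cannot be told apart.

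Markers of the cells that normally express these genes were low in total RNA, though not all were silent. Of 14 striated muscle markers, 8 were at 0 in all 4 libraries, among them the myosin heavy chains Myh2, Myh4, Myh6 and Myh7, and the list summed to 1.91 to 11.4 CPM in WT and 4.44 to 5.76 CPM in miR-379KO. All 10 meiotic germ cell markers had at most 5 counts in every library. The neuronal list summed to 13.4 to 24.7 CPM, with Snap25, Rbfox3 and Slc32a1 at 0. The ciliated epithelium list summed to 4.88 to 29.7 CPM, with Dnah9, Tekt1, Hydin and Pifo at 0. At most 5 counts in every library were found for 11 of the 14 muscle, 6 of the 10 neuronal and 5 of the 10 ciliated markers. The most abundant marker was Acta1 for muscle (4.74 CPM), Syn1 for neurons (8.68 CPM) and Foxj1 for ciliated epithelium (8.62 CPM). In AGO2-IP the muscle list summed to 4.63 to 7.35 CPM in WT and 13.1 to 15.1 CPM in miR-379KO, and the germ cell list to 7.25 to 9.25 CPM and 23.5 to 29.8 CPM. The neuronal list went from 3.93 to 6.18 CPM in WT to 12.3 to 17.8 CPM in miR-379KO, and the ciliated list from 9.13 to 13.5 CPM to 25.5 to 36.8 CPM. These 4 lists thus did not overlap between the genotypes in AGO2-IP, which was not particular to them. The tubular list had 10.3 and 10.4 CPM in WT and 29.0 and 37.1 CPM in miR-379KO. The macrophage list had 3.82 and 4.12, then 9.50 and 13.2 CPM, and the endothelial list 2.78 and 4.41, then 7.51 and 9.07 CPM. The podocyte list overlapped, and the mesangial list was lower in miR-379KO without overlap. Few muscle, germ cell, neuronal and ciliated genes reached the filter on low counts in both WT libraries (0 muscle, 0 germ cell, 0 neuronal and 3 ciliated genes). Calls are therefore given without that filter, where 11.8% of all genes were called higher and 10.0% lower. Of 14 muscle genes 4 were called higher and 1 lower, of 10 germ cell genes 7 higher, of 10 neuronal genes 6 higher and of 10 ciliated genes 4 higher, with 0 lower in these 3 lists. Lists for podocytes, endothelial cells, tubular epithelium and macrophages had 2, 2, 4 and 1 genes called higher, of 7, 6, 7 and 6, and 1 podocyte gene was called lower. Among 13 mesangial markers 1 was called higher and 6 lower.

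The label giant held for 7 of the 9 genes. Their exons, joined over the curated RefSeq transcripts, ran from 12.7 kb in Cacna1e to 104 kb in Ttn, longer than those of at least 99.3% of protein-coding genes. Trdn, with 4.86 kb, and Sycp2, with 5.69 kb, were longer than 81.9% and 87.5%. The genes also differed in base composition, from 36.3% GC in Sycp2 to 49.2% in Cacna1e. The share of exon positions whose next 31 bases occur once in the genome was at least 98.5%, apart from Neb at 93.7%, whose internal repeats can cost it reads that place nowhere uniquely.

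The muscle proteins come first. Ttn encodes titin, the molecular spring of the sarcomere, and has 314 exons (chromosome 2, 76703984 to 76982547, minus strand). It had 129 and 75 AGO2-IP counts in the WT replicates, compared with 327 and 344 in the miR-379KO replicates. Both miR-379KO libraries lay above both WT libraries, and the log2 fold change was 1.94 ± 0.25 (SE, n = 2 per genotype). Gene counts were lower in miR-379KO AGO2-IP, but reads outside genes were more numerous. Those reads came to 18126862 and 18125645 in miR-379KO, compared with 14910981 and 9472264 in WT. Gene counts alone therefore do not show which libraries were deeper.

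Neb encodes nebulin, which runs along the thin filament of skeletal muscle (chromosome 2, 52136647 to 52338798, minus strand). Its AGO2-IP counts were 52 and 46 in WT, compared with 121 and 125 in miR-379KO, with no overlap and a log2 fold change of 1.53 ± 0.24, the smallest of the 9. In total RNA, scaled to library size, it went the other way, with 3.34 and 1.20 CPM in WT and 1.04 and 0.705 CPM in miR-379KO, both below both WT libraries.

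Trdn encodes triadin, which anchors the calcium store protein calsequestrin at the muscle triad (chromosome 10, 33083483 to 33476709, plus strand). With 11 and 9 counts in WT, compared with 62 and 61 in miR-379KO AGO2-IP, its log2 fold change was 2.81 ± 0.34. The replicates of each genotype stood close together and far from those of the other.

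Cacna1e encodes the pore of the R-type voltage-gated calcium channel of neurons and endocrine cells (chromosome 1, 154392519 to 154725920, minus strand). In WT AGO2-IP it had 7 and 6 counts, the lowest of the 9 genes, and in miR-379KO 41 and 50. The log2 fold change of 2.99 ± 0.40 was the largest and the least precise of the 9, since it rests on a WT level of few counts.

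Lrp1b, a giant endocytic receptor of the LDL receptor family, spans 2057 kb of chromosome 2 (40596773 to 42653598, minus strand), of which exons make up 0.717%. It had 49 and 37 counts in WT AGO2-IP, compared with 148 and 170 in miR-379KO, a log2 fold change of 2.10 ± 0.24. Csmd3, a brain membrane protein built of CUB and sushi domains (chromosome 15, 47580638 to 48791989, minus strand), had 29 and 52 counts in WT, compared with 153 and 173 in miR-379KO. Its log2 fold change was 2.19 ± 0.29. WT B exceeded WT A for Csmd3 although it was the smaller library, and neither gene's genotypes overlapped.

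Abca13 belongs to the ABCA subfamily of lipid transporters (chromosome 11, 9191942 to 9684259, plus strand). Its counts were 22 and 24 in WT, compared with 76 and 87 in miR-379KO AGO2-IP, with a log2 fold change of 2.02 ± 0.29. Dnah11, an outer arm dynein heavy chain that moves cilia (chromosome 12, 117877982 to 118199043, minus strand), went from 19 and 12 counts to 71 and 77, a log2 fold change of 2.46 ± 0.31. Sycp2, a lateral element protein of the synaptonemal complex that pairs chromosomes in meiosis (chromosome 2, 178345295 to 178407658, minus strand), had 21 and 23 counts in WT, compared with 95 and 95 in miR-379KO. Its log2 fold change was 2.31 ± 0.28, and again no WT library reached a miR-379KO library for any of the 3 genes.

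The 9 genes thus showed no overlap between the genotypes in 9 of 9 cases, a count that the choice of the genes fixes. The share of all genes without overlap was not counted, so this count has no background here. By calls, which are a different measure, 21.4% of 13505 tested genes were higher and 9.52% lower (edgeR, adjusted p-value under 0.05). Of the 9 genes, 5 reached the filter on low counts in both WT libraries, and Dnah11, Cacna1e, Trdn and Sycp2 did not. The median log2 fold change was 2.19, beside −0.01 for all genes tested. With GC content and exon length as an offset it was 1.60, and Sycp2, the gene lowest in GC, then had 1.11 and Cacna1e, the highest in GC, 2.90. With all 4 AGO2-IP libraries 4173 genes were called. Fewer were called on omission of any of these libraries, a fit in which a genotype is left without replicates. Why the number fell was not tested.

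Counts per kb of exon were computed next, to set genes of different length on 1 scale. In miR-379KO A and B, Sycp2 stood highest at 16.7 and 16.7 counts per kb, followed by Trdn at 12.8 and 12.6, Csmd3 at 11.7 and 13.3 and Lrp1b at 10.0 and 11.5. Neb followed at 5.38 and 5.56 counts per kb, Dnah11 at 5.05 and 5.47 and Abca13 at 4.75 and 5.43. Cacna1e at 3.23 and 3.94 and Ttn at 3.13 and 3.30 stood lowest. The exact Poisson 95% intervals of neighbours in this order overlapped in each library, except between Lrp1b, whose interval began at 8.49 and 9.86 counts per kb in miR-379KO A and B, and Neb, whose interval ended at 6.43 and 6.62. These intervals cover counting error only.

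**Figure D1:**
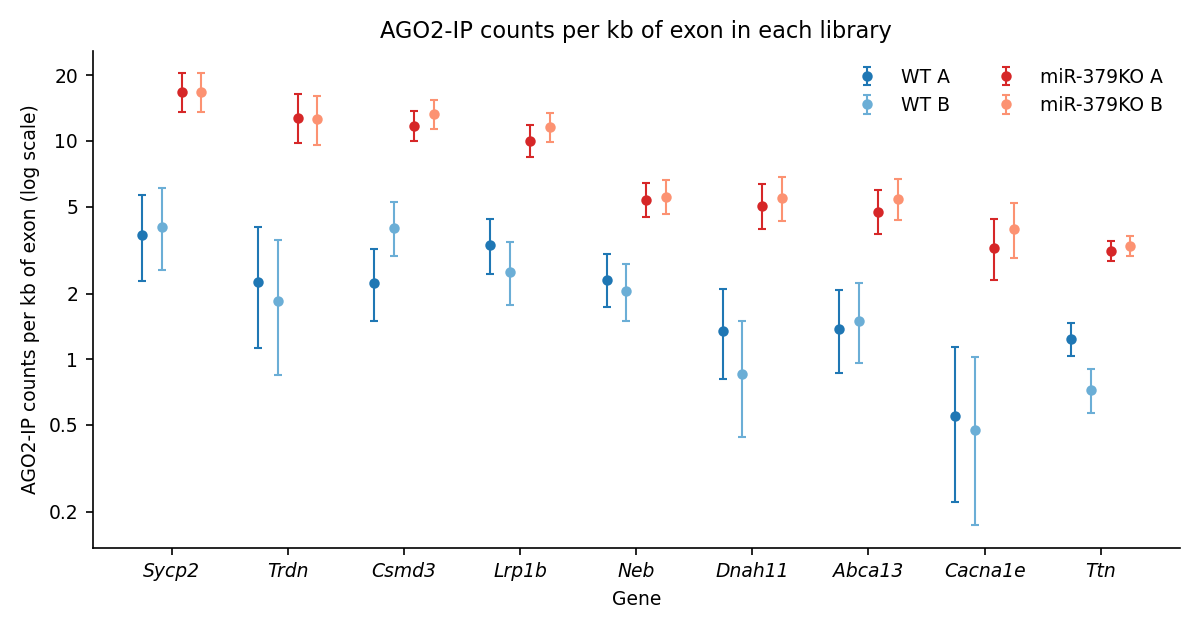
AGO2-IP counts per kb of exon (y axis, log scale) of each of the 9 genes (x axis) in WT A and B and miR-379KO A and B, with exact Poisson 95% intervals as bars. Both miR-379KO points lie above both WT points for every gene, and Sycp2, Trdn, Csmd3 and Lrp1b form an upper group in miR-379KO, from 10.0 to 16.7 counts per kb.

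In WT AGO2-IP the order was similar but the spread of counting was wide. Sycp2 had 3.69 and 4.04 counts per kb in WT A and B, Csmd3 2.23 and 3.99 and Lrp1b 3.32 and 2.51. Neb had 2.31 and 2.05, Trdn 2.26 and 1.85, Abca13 1.37 and 1.50 and Dnah11 1.35 and 0.853. Ttn, with 1.24 and 0.719, and Cacna1e, with 0.551 and 0.473, were again lowest. The longest gene, which collects the most counts, was thus among the thinnest per kb in all 4 libraries. The short Sycp2 was the densest in all 4, although its interval overlapped those of Csmd3 and Trdn in each of them.

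Read against base composition, the genes poor in GC were the dense ones. Across the 9 genes, GC content and counts per kb correlated at Pearson's r = −0.91 in miR-379KO A and −0.87 in miR-379KO B, and at −0.68 in both WT libraries. These genes share the same libraries, so the values describe the set only. The log2 fold change, by contrast, followed GC content little (r = −0.18) and was weakly related to exon length on the same measure (r = −0.38). In rank it fell with length (Spearman's rho = −0.87, compared to 0.02 for GC content). The genes were chosen on these fold changes, so no relation to length or GC content is concluded from them. Among other silent genes, described below, the ratio of the genotypes was 3.20 to 3.23 in each length class above 1000 bases.

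To ask how the 9 genes compare with other genes of few total RNA counts, their densities were set beside those of 7771 other silent protein-coding genes. Silent here means at most 5 counts in each total RNA library. Those libraries came from a poly(A) kit, so RNA without a poly(A) tail is not covered. Neb exceeds this limit and is nonetheless part of the sums of the 9. Summed over the 208 kb of their exons, the 9 genes had 1.63 and 1.37 counts per kb in WT, compared with 5.26 and 5.69 in miR-379KO AGO2-IP. The other silent genes had 1.57 and 1.02 in WT, compared with 3.17 and 3.67 in miR-379KO. In these unscaled counts both sums were higher in miR-379KO without overlap, 3.65-fold for the 9 genes (1.50 ± 0.187 compared to 5.47 ± 0.299, SD, n = 2) and 2.64-fold for the silent genes (1.29 ± 0.388 compared to 3.42 ± 0.350). The 9 genes, which were chosen for their rise, stood at 1.04 and 1.34 times the silent level in WT, compared with 1.66 and 1.55 times in miR-379KO.

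Reads that the counting placed outside genes gave a further level. Spread over both strands of the genome outside exons, they amounted to 2.85 and 1.81 reads per kb and strand in WT AGO2-IP, compared with 3.47 and 3.47 in miR-379KO AGO2-IP. Silent genes therefore stood at 0.549 and 0.563 of this level in WT and at 0.915 and 1.06 of it in miR-379KO. The 9 genes stood at 0.571 and 0.754 of it in WT, compared with 1.52 and 1.64 in miR-379KO, so relative to reads outside genes the ratio of the genotypes was 2.38, where it was 4.23 in CPM scaled with TMM factors. Introns of transcribed genes are among the sequence outside exons, so this level is no pure measure of untranscribed sequence. Its length also takes in repeats where no read can be uniquely placed, which lowers the level.

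**Figure D2:**
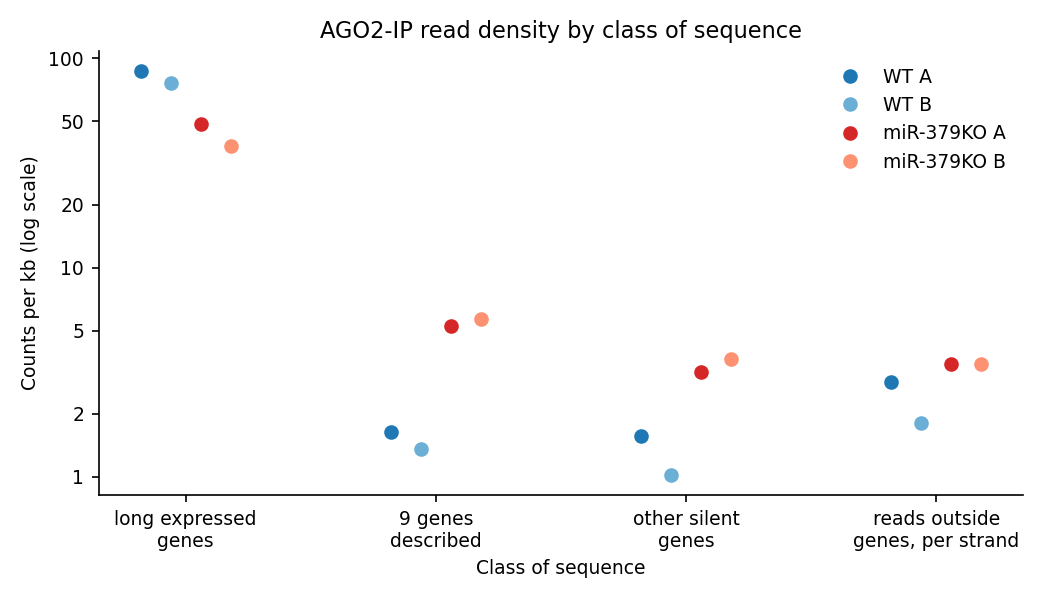
Counts per kb (y axis, log scale) in the 4 AGO2-IP libraries for long genes with ample total RNA, the 9 genes described, the other silent genes and reads outside genes per kb and strand (x axis). Long expressed genes lie at 86.9 and 76.0 in WT and lower, at 48.6 and 38.1, in miR-379KO, the 9 genes and the silent genes lie higher in miR-379KO, and in miR-379KO the silent genes lie near the reads outside genes.

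Among the other silent genes, density was lower at high GC content in WT B and in both miR-379KO libraries. In WT A it was not, with 1.60 counts per kb under 38% GC and 1.87 at 55% GC or more. Each gene was then compared with silent genes whose exon GC content lay within 2 percentage points of its own. Ttn stood at 0.777 and 0.745 times the level of 1532 such genes in WT, compared with 0.964 and 0.888 times in miR-379KO. The giant of the set thus did not exceed the pooled level of these silent genes in any of the 4 libraries. Its 95% interval lay below 1 in both WT libraries and in miR-379KO B. Cacna1e was at 0.361 and 0.542 in WT, with an interval below 1 in WT A, and at 1.13 and 1.20 in miR-379KO, where both intervals included 1.

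Abca13 and Dnah11 lay near the silent level in WT, at 0.949 and 1.34 for Abca13 and at 0.850 and 0.906 for Dnah11. In miR-379KO they were at 1.26 and 1.28 and at 1.61 and 1.53. The intervals of both genes included 1 in WT, and that of Abca13 included it in miR-379KO A too, with a lower bound of 0.992.

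The 4 dense genes and Neb stood above the pooled level of their silent peers. The intervals cover the counting error of each gene, not the spread among the silent genes. Per kb in miR-379KO, Neb was denser than 484 of the 554 other long silent genes and Sycp2 than 552. Uniquely placeable positions were computed for the 9 genes only, so the silent level is not adjusted for them. Lrp1b was at 2.23 and 2.34 times their level in WT, compared with 2.77 and 2.80 times in miR-379KO, and Sycp2 at 2.35 and 2.42 and then 3.05 and 2.83. Csmd3 was at 1.55 and 3.31 in WT, compared with 2.84 and 2.91 in miR-379KO. The intervals of these 3 genes lay above 1 in all 4 libraries, as did those of Neb, with 1.56 and 2.24 in WT, compared with 1.75 and 1.57 in miR-379KO. Trdn, at 1.48 and 1.14 in WT with intervals that included 1, reached 2.40 and 2.18 in miR-379KO.

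**Figure D3:**
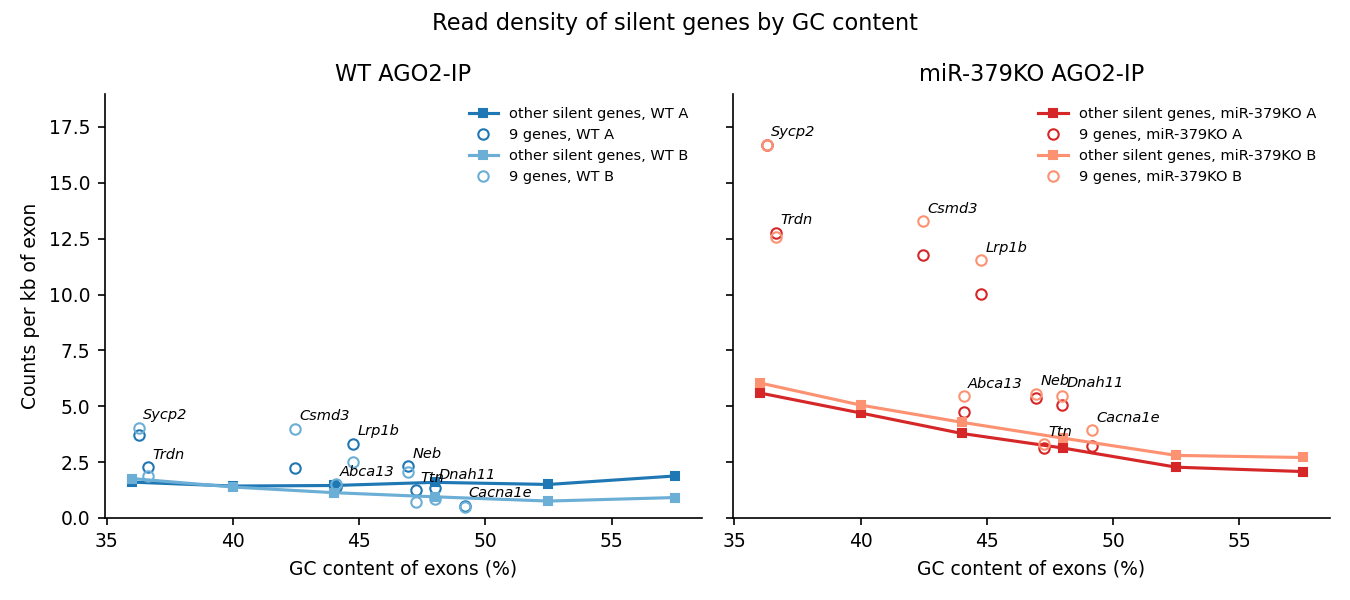
Counts per kb of exon (y axis) against GC content of exons (x axis, %) in WT (left) and miR-379KO AGO2-IP (right), with open circles for the 9 genes and lines for the other silent genes in 6 classes of GC content, each drawn at 1 position within its class. In miR-379KO the silent genes decline with GC content and Ttn lies on their line while Sycp2, Trdn, Csmd3 and Lrp1b lie well above it.

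The silent genes themselves changed with base composition, and this sets a scale for each gene's fold. In the class under 38% GC their counts per kb, scaled with TMM factors, were 3.96 times as high in miR-379KO as in WT, and in the class of at least 55% GC 2.04 times as high. These ratios, like those below, pool the replicates of a genotype. Between these classes the unscaled counts per kb went from 1.60 to 1.87 in WT A and from 1.76 to 0.908 in WT B. The ratio thus fell more against WT A than against WT B. By exon length the ratio was 2.51 for genes under 1000 bases and between 3.20 and 3.23 in the 4 classes above that, so it did not grow with length there. For silent genes of like GC content the log2 ratio was 1.68 beside Ttn, whose own log2 fold change was 1.94, and 1.69 beside Neb with 1.53. It was 1.81 beside Lrp1b with 2.10, 1.93 beside Csmd3 with 2.19, 1.86 beside Abca13 with 2.02 and 2.01 beside Sycp2 with 2.31. The distance was wider for 3 genes, with 1.64 beside Dnah11 at 2.46, 2.01 beside Trdn at 2.81 and 1.59 beside Cacna1e at 2.99, which are the 3 genes with the fewest counts in WT.

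Other long silent genes, which the choice of the 9 did not use, were higher in miR-379KO AGO2-IP as well. There were 554 protein-coding genes with exons of at least 4857 bases, the length of Trdn, and at most 5 counts in each total RNA library. Their summed density was 1.45 and 0.940 counts per kb in WT, compared with 3.07 and 3.51 in miR-379KO. Of the 436 that passed the filter, 414 did so without reaching it in both WT libraries, so calls among these are no fair count. Without the filter 541 had enough counts to be fitted, of which 319 were called higher and 0 lower, beside a background of 11.8% of all genes called higher, and 533 had a positive log2 fold change with a median of 1.43 (0.36 for all genes). With the filter 354 were called higher and 0 lower, but 144 without miR-379KO AGO2-IP B, 224 without WT AGO2-IP B and 119 with DESeq2.

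Long genes with transcript went the other way. Of 1164 protein-coding genes as long as Trdn or longer and with a mean of at least 1000 total RNA counts, 233 were called lower in AGO2-IP of miR-379KO and 4 higher (median log2 fold change −0.35), beside backgrounds of 9.52% and 21.4%. With only genes of a mean of at least 50 counts in the fit, 7 were called lower and 14 higher and the median was 0.02, so the direction of this class depends on which genes set the scale. The count of 233 was 19 without miR-379KO AGO2-IP B and 98 without WT AGO2-IP B. As a ratio within each library, free of such scaling, long expressed genes stood 60.0 and 80.8 times above long silent genes per kb in WT AGO2-IP and 15.8 and 10.8 times above them in miR-379KO. The contrast between genes with ample and with few total RNA counts was thus smaller in both miR-379KO libraries.

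**Figure D4:**
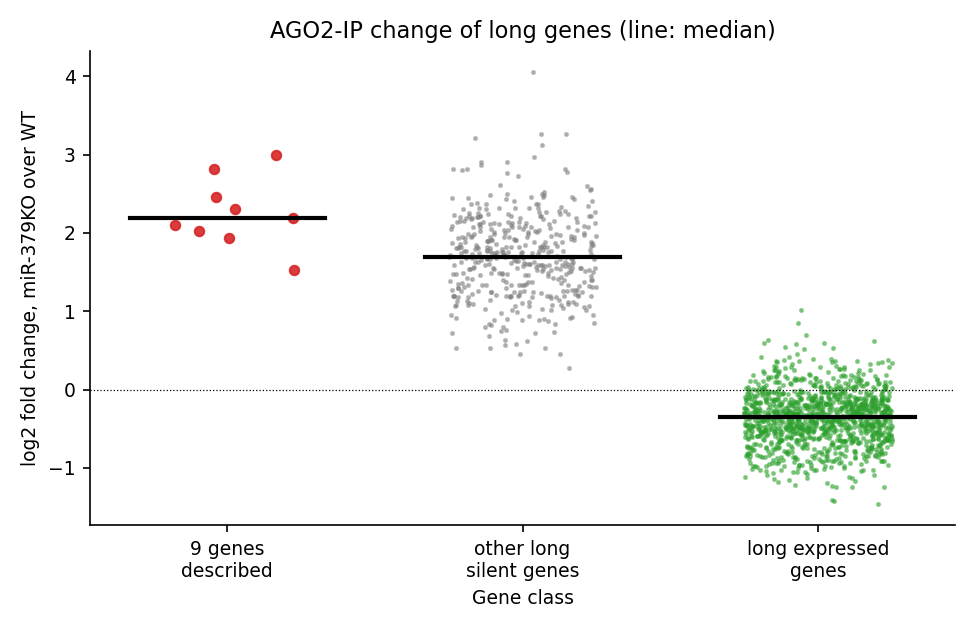
Log2 fold change of AGO2-IP counts, miR-379KO over WT (y axis), for the 9 genes described, the 436 other long silent genes and the 1164 long expressed genes that passed the filter on low counts (x axis), 1 point per gene with the median as a line. The medians are 2.19, 1.69 and −0.35, and no long silent gene shown lies below 0, where 414 of the 436 did not reach the filter in both WT libraries. Without the filter, 533 of 541 such genes were positive, with a median of 1.43.

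Relatives of the 9 genes were then read by family, from 6 lists chosen by symbol that hold 112 counted relatives. In AGO2-IP 89 of them passed the filter, of which 53 were called higher and 6 lower, beside 21.4% and 9.52% of all genes. These 59 calls came to 25 without miR-379KO AGO2-IP B, 37 without WT AGO2-IP B and 27 with DESeq2. Of the 40 relatives that passed with at most 5 counts in each total RNA library, 34 did not reach the filter in both WT libraries, so the counts below are from the fit without the filter, with its backgrounds of 11.8% higher and 10.0% lower. Among 54 such silent relatives 30 were called higher and 0 lower. In the same fit 319 of 541 other long silent genes were called higher and 0 lower, a class that includes some of these relatives. Among the other 58 relatives 18 were called higher and 12 lower, and their difference from the silent relatives was not tested. In total RNA 49 relatives were tested and edgeR called 0 of them.

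Among the sarcomere and triad genes, 13 of 43 relatives were called higher and 3 lower. Jph2, junctophilin-2 of the triad, was the list's most abundant gene in total RNA, with 2334 to 2748 counts, and fell in AGO2-IP from 216 and 207 counts to 127 and 81 (log2 fold change −0.83 ± 0.23, edgeR adjusted p-value 0.0101). Over the alternatives the adjusted p-value of Jph2 ranged from 0.00266 to 0.208, and it was not called by DESeq2.

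In the LDL receptor and CSMD list, 4 of 15 relatives were called higher and 5 lower. Lrp1, the abundant sister of Lrp1b in MMC with 13850 to 25991 total RNA counts, fell from 11194 and 8549 to 4779 and 3157 AGO2-IP counts (−1.11 ± 0.33, edgeR adjusted p-value 0.0136, and 0.00109 to 0.193 over the alternatives). Csmd2, the silent sister of Csmd3, had 24 and 8 counts in WT, compared with 26 and 37 in miR-379KO (1.20 ± 0.40, edgeR adjusted p-value 0.0275, and 0.00139 to 0.290 over the alternatives). Per kb, Lrp1 stood at 321 and 212 counts in miR-379KO AGO2-IP, against 10.0 and 11.5 for Lrp1b.

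Of the ABCA transporters, 11 of 15 relatives were called higher and 1 lower. The silent Abca12, a lipid transporter of the skin, rose from 15 and 15 counts to 43 and 67 (2.08 ± 0.35, edgeR adjusted p-value 0.00036), while the expressed Abca3, of lung surfactant secretion, had 172 and 136 counts in WT, compared with 96 and 85 in miR-379KO (−0.56 ± 0.22, edgeR adjusted p-value 0.0561, and 0.0252 to 0.633 over the alternatives). Of the dynein heavy chains, 9 of 13 relatives were called higher and 1 lower. The ciliary Dnah5, silent here, rose from 36 and 20 counts to 69 and 106 (1.86 ± 0.30, edgeR adjusted p-value 0.00034). Dync1h1, the cytoplasmic dynein that all cells use, had 3512 and 3068 counts in WT, compared with 1984 and 1455 in miR-379KO (−0.74 ± 0.29, edgeR adjusted p-value 0.0579, and 0.0311 to 0.388 over the alternatives).

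Among calcium channel alpha-1 subunits, 4 of 9 relatives were called higher and 0 lower. Cacna1i, a T-type channel with 0 counts in total RNA, had 15 and 5 AGO2-IP counts in WT, compared with 20 and 23 in miR-379KO (1.31 ± 0.45, edgeR adjusted p-value 0.0294, and 0.00347 to 0.244 over the alternatives). Cacna1c, the L-type channel of smooth and cardiac muscle, had 92 and 54 counts in WT, compared with 67 and 71 in miR-379KO (0.14 ± 0.25, edgeR adjusted p-value 0.704). The genotypes overlapped for Cacna1c, and its sign was negative without a filter on low counts, in the fit of all 8 libraries and without WT AGO2-IP B. In the synaptonemal complex and meiotic axis list, 7 of 18 relatives were called higher and 2 lower. Smc1b, the cohesin subunit of meiosis, rose from 7 and 12 counts to 27 and 51 (2.23 ± 0.43, edgeR adjusted p-value 0.00115), and Rad21, the cohesin subunit of dividing cells, fell from 224 and 297 to 154 and 133 (−0.68 ± 0.24, edgeR adjusted p-value 0.0351, and 0.00264 to 0.443 over the alternatives). Csmd2, Abca12, Cacna1i and Smc1b did not reach the filter in both WT libraries. Without the filter edgeR called them too, with adjusted p-values of 0.0365, 1.09e-05, 0.0466 and 2.98e-05, and over all alternatives those of Abca12 and Smc1b were at most 0.0381 and 0.0485.

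The genes whose pattern over the 8 libraries was most like the sum of the 9 were read off last, among 4965 genes with a mean of at least 50 AGO2-IP counts, by Pearson's r of log2(CPM + 1). They were Gm3002 (r = 0.999), Dnah7b (0.998), 4930511M06Rik (0.997), Dcdc2c (0.997) and Gm9159 (0.997). All 5 had few counts in total RNA, from 8 to 94 per library. Dnah7b, a ciliary inner arm dynein heavy chain, went from 54 and 43 AGO2-IP counts in WT to 81 and 87 in miR-379KO. The 8 libraries hold both assays, so these correlations include the difference between the assays and are given as descriptions. Gm3002 and Gm9159 are predicted genes, and reads shared with near-identical copies are uncertain for them.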

How the data were processed

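Total RNA and AGO2-IP libraries of WT and miR-379KO MMC were used as the raw gene counts that the authors deposited, in whole reads, 1 list of 24639 genes per library. Per the labels and the study's methods, total RNA libraries came from a stranded poly(A) kit and AGO2-IP libraries from sonicated, cross-linked lysates by adapter ligation without size selection. Reads were aligned to mm10 with TopHat (with Bowtie2, and with HTSeq 0.6.0, in the submitters' processing notes) and counted on UCSC RefSeq genes by strand. Reads that are not uniquely placed were left out by the counting, which lowers repeated genes. The closing lines of each list (reads outside genes, ambiguous, not unique) named no gene and stayed out of library sizes. Reads outside genes came to between 6.41% and 76.4% of the uniquely placed reads.

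Symbols were matched to curated RefSeq transcripts of GRCm38.p6, with 23598 by symbol, 716 by synonym and 325 not matched, and counts were divided by the length of the joined exons. Coordinates are 1-based. Genotypes were compared within each assay in edgeR 4.0.16 under R 4.3.3 (TMM, filterByExpr with a minimum count of 10, robust quasi-likelihood F test, Benjamini-Hochberg adjusted p-value under 0.05 over all genes tested). Fold changes are log2 values of that fit. Python 3.11.15 and scipy 1.17.1 gave exact Poisson 95% intervals. Alternatives were DESeq2 1.42.0, RLE factors, TMM without the 20 most abundant genes, GC content and exon length as an offset, other filters, all 8 libraries together, a replicate block, omission of each replicate, and other lengths and denominators. The crossed pairing for total RNA was added after the data were seen.

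The 9 genes, the family and marker lists and the tests were chosen with earlier results of these data known. Named relatives were, per list, the gene highest in total RNA and the silent gene with the longest exons, and the 5 genes of most similar pattern were added. For 1 list a single relative is given, as the other is not reported here. The study calls A and B independent samples. Whether they are separate animals or separate cultures of the same cells is not given in the sources used here, so p-values measure only the spread between these samples, which may be technical. Dnah3, Dnah12, Dnah14 and Six6os1 were not counted under these symbols. Protein sequences were not used here.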

Additional observations from a re-analysis of the deposited data

How the results depend on the processing

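The log2 fold change of each of the 9 genes was positive in all 114 values over 13 settings, from 1.11 to 3.11, a direction that the choice of the genes fixes. Their median of 2.19 was 1.60 with the GC and length offset, 1.63 with the replicate block and that offset, 2.44 for the 6 genes left by a mean of 50 counts, 1.97 without the filter on low counts, and 2.02 to 2.26 on omission of single replicates. The log2 ratio per kb of 2.08 was 2.41 when scaled to counts outside Rn45s and Lars2, 1.89 when scaled to uniquely placed reads, and 1.96 to 2.19 without single replicates. The median WT level of 0.218 CPM per kb was 0.232 with the longest transcript as length and 0.221 with uniquely placeable positions as length. Relative to reads outside genes the log2 ratio of 1.25 was 1.72 over all listed reads and 1.07 to 1.47 without single replicates.

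Counts of calls moved most. The 4173 AGO2-IP calls came to 838 with DESeq2, 686 with all 8 libraries in one fit, 274 with a mean of 50 counts and 918 to 3337 without single replicates. The 354 long silent genes came to 119, 60, 9 of 10 tested and 144 to 323 in the same order, the 59 family calls to 27, 13, 8 and 25 to 57, and the 233 long expressed genes to 112, 72, 7 and 19 to 236, with 415 under the offset and 366 without the filter. Cacna1c, not called, changed sign to −0.0033 with all 8 libraries, −0.0705 without the filter and −0.14 without WT AGO2-IP B, in a range of −0.14 to 0.37 without single replicates. Calls among the long silent genes, here and below, are no fair count where the filter is used. Of the 436 that passed it, 414 did not reach it in both WT libraries. Without the filter 319 of 541 were called higher. The cause of these shifts was not tested.

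Letters A and B are shared by all groups, but same-letter samples did not deviate together (correlation −0.03 over 13505 genes in AGO2-IP, −0.21 over 12321 in total RNA). With the replicate block 3817 genes were called in AGO2-IP, 338 of the long silent genes and 156 of the long expressed ones, with a median of 2.23 for the 9 genes, and 0 in total RNA. Of the named relatives, Rad21 was not called with the block (edgeR adjusted p-value 0.0594, in a range of 0.00264 to 0.443 over the alternatives). The crossed pairing gave 1 call in total RNA. With 6 to 52 WT counts for most of the 9 genes, counting error limits their WT levels.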
